A study of Mus musculus with 6 samples.

Results

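The insulin-like growth factor (IGF) genes were taken as the rows of the deposited count table whose symbol is Igf1, Igf2, Igf1r, Igf2r, Igfbp2, Igfbp3, Igfbp4, Igfbp5, Igfbp6 or Igfbp7. All 10 symbols were found, each on a single row, among 22183 genes. RNA was sequenced from sorted cells labelled peritoneal endothelial cells (ECs), from 3 mice that received saline (saline mice) and 3 mice that received glucose-based peritoneal dialysis (PD) fluid (PD mice), both by intraperitoneal injection for 6 weeks. All 6 were wild type, and the methods describe young adult male C57BL/6J mice injected daily, with 1 library for each mouse. The labels describe magnetic sorting of CD31+ cells, while the methods describe fluorescence-activated sorting of CD31+ CD45- cells from the mesentery. Each library held between 21973426 and 26374292 counted reads.

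IGF1 and IGF2 are secreted growth factors that act through the receptor tyrosine kinase IGF1R, whereas IGF2R, which is also the cation-independent mannose 6-phosphate receptor, takes IGF2 up for degradation and carries lysosomal enzymes. The binding proteins (IGFBPs) hold the ligands outside the cell, prolong their life or keep them from the receptor, and are themselves cut by proteases. In blood vessels, IGF signalling is known for its part in endothelial growth, survival and repair, and several binding proteins are laid down in the vessel wall.

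In PD mice, 8 of the 10 IGF genes were higher than in saline mice under TMM scaling, from 1.58-fold for Igf1r to 7.96-fold for Igfbp6, and none was called lower. Once the libraries were scaled to the summed counts of endothelial marker genes, Igf1r and Igfbp4 lost their call, Igf1r its direction, and Igf2r was called lower. By that scaling 1710 of all 14005 tested genes were called higher and 8927 lower. With equal weight for each marker Igf2 lost its call as well and Igfbp4 its direction. Both ligands rose, Igf1 2.63-fold and Igf2 2.37-fold. Of the receptors, Igf1r rose and Igf2r did not pass the test. Of the 6 binding protein genes, 5 rose and Igfbp2 had too few reads to be tested. These calls come from edgeR's quasi-likelihood test on the counts of all 14005 genes that passed its filter on low counts, at an adjusted p under 0.05. By the same rule 58.9% of all tested genes were called, 31.1% as higher and 27.8% as lower. A rise of at least 2-fold was seen in 6 of the 9 tested IGF genes, against 15.4% of all tested genes. The groups did not overlap for 8 genes that were higher and for Igf2r, which was lower, against 34% of all tested genes without overlap and higher and 65.6% without overlap in either direction. The median log2 fold change of the 9 genes was 1.39, and that of all tested genes was 0.02. In bulk samples, fewer cells of a type and less RNA per cell cannot be told apart.

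**Figure D1:**
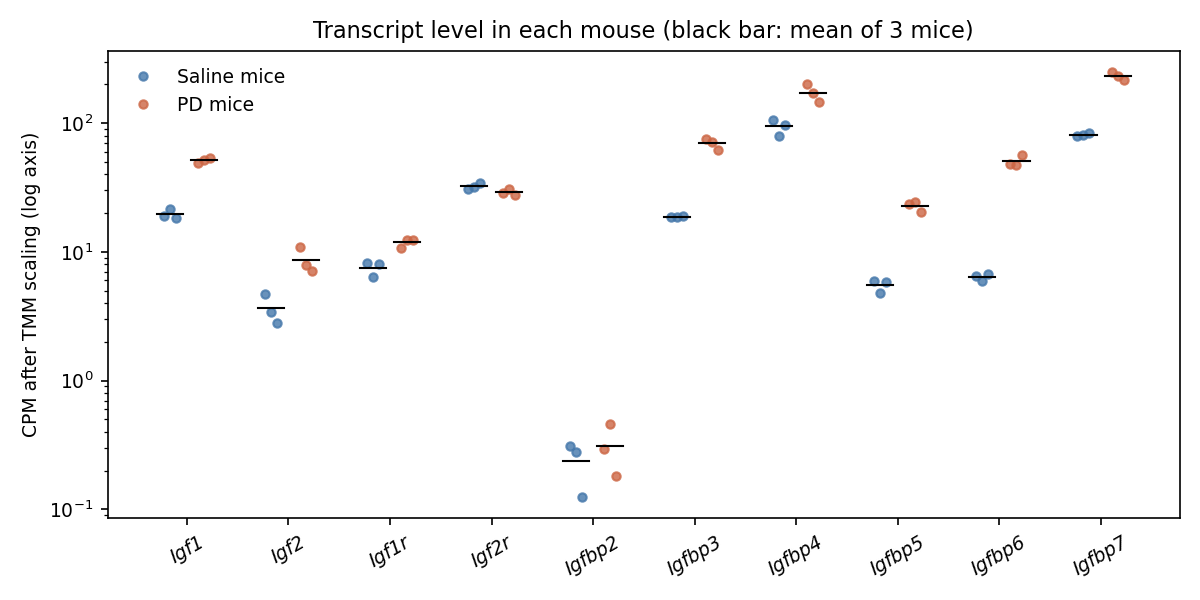
CPM of each IGF gene (log axis, reads scaled to library size by TMM) in the 3 saline mice (blue) and the 3 PD mice (orange), with a black bar at the mean of each group. The groups are apart for every gene but Igfbp2, narrowly so for Igf2r. Igf2r is the one gene with its PD mice at the lower side. Under endothelial scaling, which is not shown here, Igf1r had log2 fold changes of -0.03 (summed markers) and -0.29 (equal weight). Igfbp4 was at -0.09 with equal weight, and none of these values was called in edgeR.

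The sorted cells were checked against marker genes, since the level of a gene in a sorted pool depends on which cells are in it. Pecam1, which encodes CD31, was at 469 ± 19.4 CPM (reads scaled to library size) with saline and 513 ± 7.85 CPM with PD fluid, and Ptprc, which encodes the leukocyte antigen CD45, at 2372 ± 127 and 1472 ± 63.6 CPM (SD, n = 3 mice each). Per length, Ptprc was at 624 ± 30.2 FPKM with saline and 392 ± 7.73 FPKM with PD fluid, against 145 ± 4.44 and 158 ± 5.11 FPKM for Pecam1 (SD, n = 3 mice each), so CD45 transcripts exceeded CD31 transcripts in every library, although a CD45- gate would leave out the cells that carry them. Several marker lists moved with PD fluid, as given below beside the IGF genes.

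The IGF genes lie on 7 chromosomes (GRCm38, GENCODE M21; the authors' build is not given in the sources used here). Igfbp2 (chromosome 1, 72824503 to 72852474) and Igfbp5 (chromosome 1, 72857932 to 72874884) are neighbours that point at each other with 5457 bases between them. Igfbp2 had 3 to 11 reads per mouse in these libraries. Igfbp5 had 103 to 152 reads per saline mouse and 448 to 640 per PD mouse. Igfbp3 (chromosome 11, 7206086 to 7213923) and Igfbp1 form a second such pair, 3539 bases apart, of which Igfbp1 had 1 read over all 6 mice. Igf2 (chromosome 7, 142650766 to 142666816) is the neighbour of the insulin gene Ins2, which had no reads in any mouse. Igfbp6 (chromosome 15, 102144362 to 102149511) is the shortest gene of the set at 5150 bases, and Igf1r (chromosome 7, 67952827 to 68233668) the longest at 280842 bases. Antisense genes lie across Igf1, Igf2, Igf2r and Igfbp7 in this annotation. The library kit is not described as strand-marking, so reads of a gene and of its antisense partner cannot be told apart.

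As a description of the genes, the 250 bases before the transcription start were read for all 10 from RefSeq (GRCm38.p6). This gave 14 windows in total, since Igf2 has 4 starts and Igfbp2 has 2. The windows of Igfbp6 and Igfbp3, both among the genes with large rises, and of Igf2r, which did not pass the test, are shown with motif matches in capitals. Both strands were searched for the TATA box as TATAAA, for the CCAAT box by its letters, for the GC box as GGGCGG, for the core of hypoxia response elements as ACGTG, which is also part of an E-box, and for the AP-1 motif as TGANTCA. Neighbouring matches can run together in capitals. The window of Igfbp6 is chr15:102143936-102144185 on the plus strand, that of Igfbp3 chr11:7213924-7214173 on the minus strand and that of Igf2r chr17:12769707-12769956 on the minus strand.

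Igfbp6: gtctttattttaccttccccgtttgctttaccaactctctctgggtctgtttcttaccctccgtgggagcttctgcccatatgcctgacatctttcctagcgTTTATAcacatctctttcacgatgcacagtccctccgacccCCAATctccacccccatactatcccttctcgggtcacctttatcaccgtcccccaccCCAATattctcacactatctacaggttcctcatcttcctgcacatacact

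Igfbp3: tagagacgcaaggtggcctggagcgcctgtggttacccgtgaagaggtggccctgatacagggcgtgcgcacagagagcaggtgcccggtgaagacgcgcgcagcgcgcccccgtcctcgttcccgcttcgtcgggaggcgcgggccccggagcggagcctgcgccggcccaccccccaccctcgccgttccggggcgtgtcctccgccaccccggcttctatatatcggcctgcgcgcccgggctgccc

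Igf2r: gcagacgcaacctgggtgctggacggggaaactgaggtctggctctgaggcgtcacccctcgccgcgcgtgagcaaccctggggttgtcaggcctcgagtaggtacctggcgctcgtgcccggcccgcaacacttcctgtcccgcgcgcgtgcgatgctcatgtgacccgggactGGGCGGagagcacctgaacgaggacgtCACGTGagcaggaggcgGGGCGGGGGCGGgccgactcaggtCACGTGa

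The window of Igfbp6 held TATAAA once and CCAAT at 2 positions, motifs found in 12.4% and 33.8% of 32851 promoter windows of this length. It had 49.6% G and C, close to the median of 52.4% over all windows, and 7 CpG dinucleotides against a median of 6. Igfbp3, with 73.2% G and C and 32 CpG, held none of the 5 motifs. Igf2r, with 69.2% G and C and 27 CpG, held GGGCGG, which 32.7% of windows hold, and ACGTG, which 16.6% hold. GGGCGG was also in windows of Igf1r, Igf2, Igfbp2 and Igfbp7, and ACGTG in windows of Igf2, Igfbp2 and Igfbp7. No motif of the 5 was shared by all genes that were higher, since Igfbp3 and Igfbp5 held none. AP-1 letters were found for Igf1 and in 1 window of Igfbp2, against 6.75% of all windows. Both of these windows lie inside the GENCODE M21 span of their gene, where they overlap 2 exons and 1 exon. A match is a description of letters and shows no binding.

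Igf1 (ENSMUSG00000020053; chromosome 10, 87858265 to 87937042) was at 18.9, 21.4 and 18.3 CPM in the saline mice and at 48.9, 51.2 and 53.8 CPM in the PD mice. All 3 PD mice were above all 3 saline mice, and the spread within each group was small beside the gap. The means were 19.5 ± 1.63 and 51.3 ± 2.43 CPM (SD, n = 3 mice each), with a log2 fold change of 1.39 (SE 0.09; edgeR, adjusted p = 3.84e-07). Igf2 (ENSMUSG00000048583), the growth factor that is imprinted and best known from fetal growth, was at 4.68, 3.41 and 2.82 CPM in the saline mice and at 10.8, 7.92 and 7.07 CPM in the PD mice. The groups did not overlap, but both varied more than for Igf1. The log2 change was 1.24 (SE 0.23; edgeR, adjusted p = 0.000823). Igf2 overlaps Gm49394 on the same strand, which was listed at 0 in all 6 mice. Per length, by the FPKM that the authors computed, Igf1 exceeded Igf2 in every mouse, by 2.12 to 3.55 times in the saline mice and 2.54 to 4.37 times in the PD mice, ranges that overlap.

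Igf1r (ENSMUSG00000005533), the signalling receptor of both ligands, was at 8.12, 6.36 and 7.99 CPM in the saline mice and at 10.7, 12.4 and 12.4 CPM in the PD mice. Every PD mouse was above every saline mouse. Its log2 change of 0.66 was the smallest of those called (SE 0.15; edgeR, adjusted p = 0.0027). With the libraries scaled to the summed counts of 12 endothelial markers it was -0.03 (95% interval -0.36 to 0.30, adjusted p = 0.868 in edgeR). Igf2r (ENSMUSG00000023830; chromosome 17, 12682406 to 12769664) was at 30.6, 31.9 and 34.3 CPM in the saline mice and at 28.6, 30.6 and 27.8 CPM in the PD mice. The highest PD mouse lay just under the lowest saline mouse. The log2 fold change was -0.16, with a 95% interval of -0.35 to 0.04 (adjusted p = 0.148 in edgeR), and with scaling to the summed endothelial markers it was -0.85 (adjusted p = 2.77e-06 in edgeR). By that scaling the median of all tested genes was -0.67. Per length, Igf2r stood at 4.84 to 6.45 times Igf1r in the saline mice and at 2.87 to 3.44 times in the PD mice, and these ranges did not overlap. The ratio of Igf1 to Igf1r, per length, was 13.2 to 20.6 in the saline mice and 26.0 to 27.3 in the PD mice, also without overlap. No test was made of these ratios.

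Igfbp6 (ENSMUSG00000023046), whose product binds IGF2 in preference to IGF1, had the largest change of the set. It was at 6.48, 5.90 and 6.71 CPM in the saline mice and at 48.1, 47.6 and 56.6 CPM in the PD mice. The lowest PD mouse was therefore several times above the highest saline mouse. The log2 fold change was 2.99 (SE 0.11; edgeR, adjusted p = 3.98e-09). Igfbp5 (ENSMUSG00000026185), which encodes a matrix-bound binding protein, was at 5.93, 4.75 and 5.84 CPM in the saline mice and at 23.5, 24.5 and 20.3 CPM in the PD mice. The log2 change was 2.04 (SE 0.14; edgeR, adjusted p = 4.21e-07). Igfbp3 (ENSMUSG00000020427), the main carrier of IGFs in plasma, was at 18.5, 18.5 and 18.9 CPM in the saline mice and at 75.8, 71.6 and 62.0 CPM in the PD mice. The saline mice were almost alike for this gene, while the PD mice spread over a range of values that all lay above them. The log2 change was 1.90 (SE 0.09; edgeR, adjusted p = 3.36e-08).

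Igfbp7 (ENSMUSG00000036256; chromosome 5, 77349240 to 77408041) encodes a protein of the vascular basement membrane that binds IGFs only weakly. It was at 78.9, 80.2 and 83.9 CPM in the saline mice and at 249, 232 and 217 CPM in the PD mice, with no overlap. The log2 fold change was 1.52 (SE 0.07; edgeR, adjusted p = 2.03e-08). It shares 85 bases with Polr2b on the other strand, whose counts ran from 2907 to 4268 in the 6 mice. Igfbp4 (ENSMUSG00000017493; chromosome 11, 99041244 to 99054392), an inhibitory binding protein that releases IGFs when cut by the protease PAPP-A, was at 106, 78.9 and 97.4 CPM in the saline mice and at 200, 171 and 145 CPM in the PD mice. Relative to the mean, these were the widest spreads of the 5 tested binding protein genes, although the groups did not overlap. The log2 fold change was 0.87 under TMM scaling (SE 0.12; edgeR, adjusted p = 0.000153), 0.18 with scaling to the summed endothelial markers (adjusted p = 0.171 in edgeR) and -0.09 with equal weight for each marker (adjusted p = 0.48 in edgeR). Igfbp2 (ENSMUSG00000039323) had 8, 6 and 3 reads in the saline mice and 8, 11 and 4 in the PD mice, so the groups overlapped and no difference was detectable at this depth. Without the filter on low counts its log2 fold change was 0.39, with a 95% interval of -1.20 to 1.99.

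**Figure D2:**
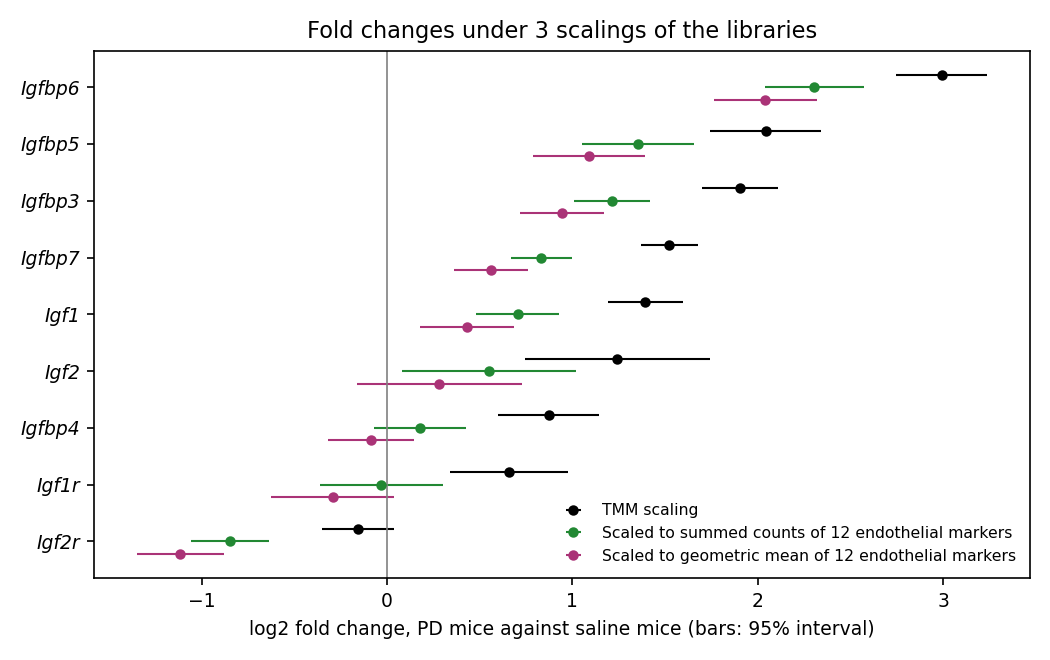
Log2 fold change of the 9 tested IGF genes, PD mice against saline mice, with 95% intervals, under TMM scaling (black), scaling to the summed counts of 12 endothelial markers (green) and scaling to their geometric mean (purple). Igfbp6, Igfbp5, Igfbp3, Igfbp7 and Igf1 stay above 0 with their intervals under all 3 scalings. Igf1r lies below 0 under both endothelial scalings and Igfbp4 under the geometric one, in each case with an interval that includes 0.

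Levels of different genes can be compared per length only, and the authors' FPKM were used for this. Igfbp7 was the most abundant IGF gene in both groups, at 72.3 ± 2.71 FPKM in saline mice and 210 ± 20.1 FPKM in PD mice, followed by Igfbp4 at 39.8 ± 6.85 and 74.9 ± 12.1 FPKM (SD, n = 3 mice each). In saline mice, Igf1 came next at 10.1 ± 1.06 FPKM, then Igfbp3 at 7.72 ± 0.15, Igfbp6 at 5.70 ± 0.42, Igf2r at 3.62 ± 0.23 and Igf2 at 3.51 ± 1.00 FPKM (SD, n = 3 mice). Igfbp5, Igf1r and Igfbp2 were all under 1 FPKM in these mice. Of the neighbours in this order, only Igf2r and Igf2 overlapped among the 3 saline mice. In PD mice, Igfbp6 came after Igfbp4 at 45.7 ± 3.52 FPKM, ahead of Igfbp3 at 29.2 ± 3.74 and Igf1 at 27.5 ± 1.09 FPKM (SD, n = 3 mice), the last pair overlapping. Igf2 was at 8.06 ± 2.07, Igfbp5 at 3.81 ± 0.44 and Igf2r at 3.27 ± 0.20 FPKM, of which Igfbp5 and Igf2r overlapped (SD, n = 3 mice). Igf1r, at 1.04 ± 0.07 FPKM, and Igfbp2, at 0.28 ± 0.09 FPKM, closed the order (SD, n = 3 mice).

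The 6 binding protein genes summed to 131, 117 and 132 FPKM in the saline mice and to 399, 360 and 331 FPKM in the PD mice. Igfbp7 made up 57.2% ± 3.35 of this sum in saline mice and 57.6% ± 0.31 in PD mice (SD, n = 3 mice each), so its share differed by less than the spread between mice. The share of Igfbp6 was 4.50% ± 0.08 in saline mice and 12.7% ± 2.03 in PD mice, and that of Igfbp4 was 31.3% ± 3.65 and 20.5% ± 1.43 (SD, n = 3 mice each). Neither gene's shares overlapped between the groups, with those of Igfbp6 higher and those of Igfbp4 lower in PD mice. Igfbp3 went from 6.11% ± 0.34 to 8.01% ± 0.38 and Igfbp5 from 0.72% ± 0.05 to 1.05% ± 0.08 (SD, n = 3 mice each), without overlap. Shares within a library do not depend on how the libraries are scaled. The sum of the binding protein genes was 8.01 to 11.1 times that of both ligand genes in the saline mice and 9.72 to 10.9 times in the PD mice, ranges that overlap.

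**Figure D3:**
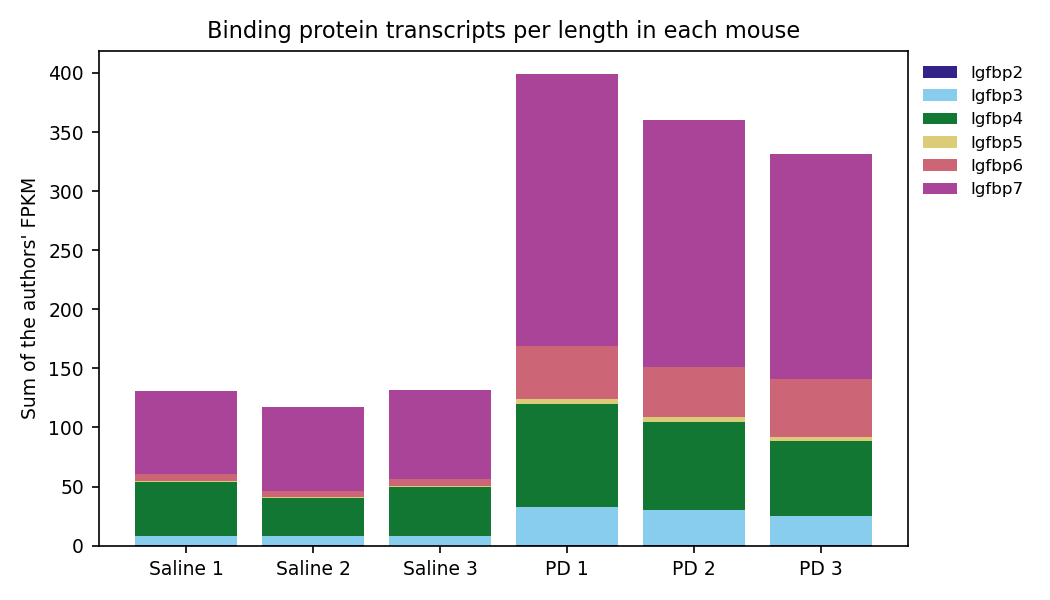
Sum of the authors' FPKM over the 6 binding protein genes in each of the 3 saline mice and 3 PD mice, stacked by gene. The bars reach 117 to 132 FPKM in the saline mice and 331 to 399 FPKM in the PD mice; the share of Igfbp7 is alike in both groups, while that of Igfbp6 is larger and that of Igfbp4 smaller in PD mice.

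The wider pathway was described with 39 genes that work on IGFs, their binding proteins or their receptors, or are, like Igf2, imprinted growth genes. Of these, 37 had a row among the 22183 genes, while H19 and Meg3 had none and were not analysed here. Of the 26 genes that passed the filter on low counts, 15 were higher in PD mice and 2 lower in edgeR's quasi-likelihood test, against 31.1% and 27.8% of all tested genes. Their median log2 fold change was 0.71. Scaled to the summed endothelial markers, 8 genes were higher, namely Htra1, Htra3, Stc1, Stc2, Grb10, Grb14, Cish and Ndn, and 11 were lower. Scaled to their geometric mean, 5 were higher and 12 lower, Grb10, Grb14 and Ndn lost their call, and 7 of the 15 changed direction, namely Insr, Irs2, Ghr, Socs2, Nagpa, Mest and Cdkn1c. Of all 14005 tested genes, 1710 were higher and 8927 lower under the summed scaling, and 1186 and 10045 under the geometric one.

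Among proteases that cut binding proteins and the inhibitors of such proteases, all 4 tested genes rose, and all 4 were also called higher in edgeR under both endothelial scalings. Of all 14005 tested genes, 31.1% were called higher under TMM scaling, 1710 under the summed endothelial scaling and 1186 under the geometric one. Htra1 and Htra3 encode secreted serine proteases that can cut binding proteins. Htra3 rose from 2.91 ± 0.83 to 20.03 ± 2.53 CPM (mean ± SD of 3 mice; log2 fold change 2.78, adjusted p = 5.76e-07 in edgeR) and Htra1 from 10.4 ± 0.76 to 26.0 ± 0.55 CPM (log2 fold change 1.32, adjusted p = 1.75e-06 in edgeR). The stanniocalcins, which inhibit PAPP-A, rose as well, Stc1 with a log2 fold change of 1.97 (adjusted p = 7.89e-07 in edgeR) and Stc2 with one of 1.87 (adjusted p = 0.000601 in edgeR). Pappa itself, the protease of IGFBP4, had 0 reads in each saline mouse and 26, 11 and 8 reads in the PD mice. Its mean CPM in PD mice was at least 4.69-fold higher than 3 counts in a saline library would give. Pappa had too few reads to pass the filter on low counts. Pappa2 had no reads, and neither had Igfbpl1. Igfals, whose product joins IGFBP3 or IGFBP5 and an IGF in the ternary complex of plasma, had 0 reads in each saline mouse and 7, 6 and 1 in the PD mice.

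Of the insulin receptor and the adaptors below it, 4 of 5 tested genes were higher under TMM scaling, against 31.1% of all tested genes. Grb10 and Grb14 encode adaptors that dampen the insulin and IGF receptors. Grb10 rose from 16.8 ± 0.28 to 36.3 ± 2.52 CPM (log2 fold change 1.11, adjusted p = 2.71e-06 in edgeR) and Grb14 from 0.55 ± 0.16 to 1.90 ± 0.51 CPM (log2 fold change 1.76, adjusted p = 0.00213 in edgeR). With the geometric endothelial scaling, Grb10 was at 0.15 (adjusted p = 0.24 in edgeR) and Grb14 at 0.82 (adjusted p = 0.0653 in edgeR). Insr changed by 0.70 on the log2 scale (adjusted p = 0.00107 in edgeR) and the docking protein gene Irs2 one of 0.72 (adjusted p = 0.00444 in edgeR), both of which turned negative with the geometric endothelial scaling. Shc1 was at 126 and 136 CPM (adjusted p = 0.173 in edgeR), and was called lower under both endothelial scalings. Of all 14005 tested genes, 8927 were called lower under the summed scaling and 10045 under the geometric one. Irs1, the other main docking protein gene, had at most 2 reads in any mouse, Insrr at most 11, and Irs4 had none.

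In the growth hormone axis, which drives Igf1 transcription in liver and other tissues, 3 of 6 genes rose and 1 fell. Of all tested genes, 31.1% were called higher and 27.8% lower. The feedback inhibitor gene Cish rose from 5.71 ± 0.87 to 22.1 ± 2.17 CPM (log2 fold change 1.95, adjusted p = 9.19e-07 in edgeR), also under both endothelial scalings. Socs2, another feedback inhibitor gene, changed by 0.86 on the log2 scale (adjusted p = 1.64e-05 in edgeR) and the growth hormone receptor gene Ghr by 0.72 (adjusted p = 0.000775 in edgeR), but both were negative with the geometric endothelial scaling. The kinase gene Jak2 fell by 0.30 on the log2 scale (adjusted p = 0.00179 in edgeR). Stat5a and Stat5b had log2 fold changes of 0.07 and 0.04, and neither passed the test under TMM scaling. With scaling to the summed endothelial markers both were called lower, Stat5a at -0.63 (adjusted p = 0.00185 in edgeR) and Stat5b at -0.65 (adjusted p = 6.88e-06 in edgeR). The median of all tested genes by that scaling was -0.67, and 8927 of 14005 genes were called lower.

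For IGF2R as a sorting receptor, the genes that make or read the mannose 6-phosphate tag were compared. M6pr, the smaller receptor of the tag, was at 290 and 293 CPM, with a log2 fold change of 0.01 under TMM scaling (adjusted p = 0.853 in edgeR) and of -0.67 with scaling to the summed endothelial markers (adjusted p = 2.90e-06 in edgeR). That scaling put the median of all tested genes at -0.67, and the geometric one put it at -0.94. Gnptab, which encodes the enzyme subunits that attach the tag, fell by 0.36 on the log2 scale (adjusted p = 0.00617 in edgeR), and Gnptg was at 57.8 and 51.4 CPM (adjusted p = 0.0693 in edgeR) and was called lower under both endothelial scalings. Nagpa, which encodes the enzyme that uncovers the tag, changed by 0.51 on the log2 scale (adjusted p = 0.000288 in edgeR) and was negative under both endothelial scalings, with a lower call under the geometric one. Of the genes for Igf2 mRNA-binding proteins, Igf2bp2 (log2 fold change 0.74) and Igf2bp3 (-0.74) did not pass the test, and Igf2bp1 had 1 read in all. Among the imprinted growth genes, Ndn (log2 fold change 1.47), Mest (0.76) and Cdkn1c (0.40) were higher in edgeR's test under TMM scaling, while Peg3 (-0.04) and Gnas (-0.10) did not pass it. Cdkn1c was called lower with scaling to the summed endothelial markers, at -0.28 (adjusted p = 0.0394 in edgeR), and with the geometric one, at -0.55 (adjusted p = 0.000405 in edgeR). With the geometric scaling Mest was negative, without a call, and Ndn was at 0.51 (adjusted p = 0.14 in edgeR). Igf2bp3, Peg3 and Gnas were called lower under both endothelial scalings. Of all 14005 tested genes, 8927 were called lower under the summed scaling and 10045 under the geometric one. Plagl1 and Dlk1 were too low to be tested.

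**Figure D4:**
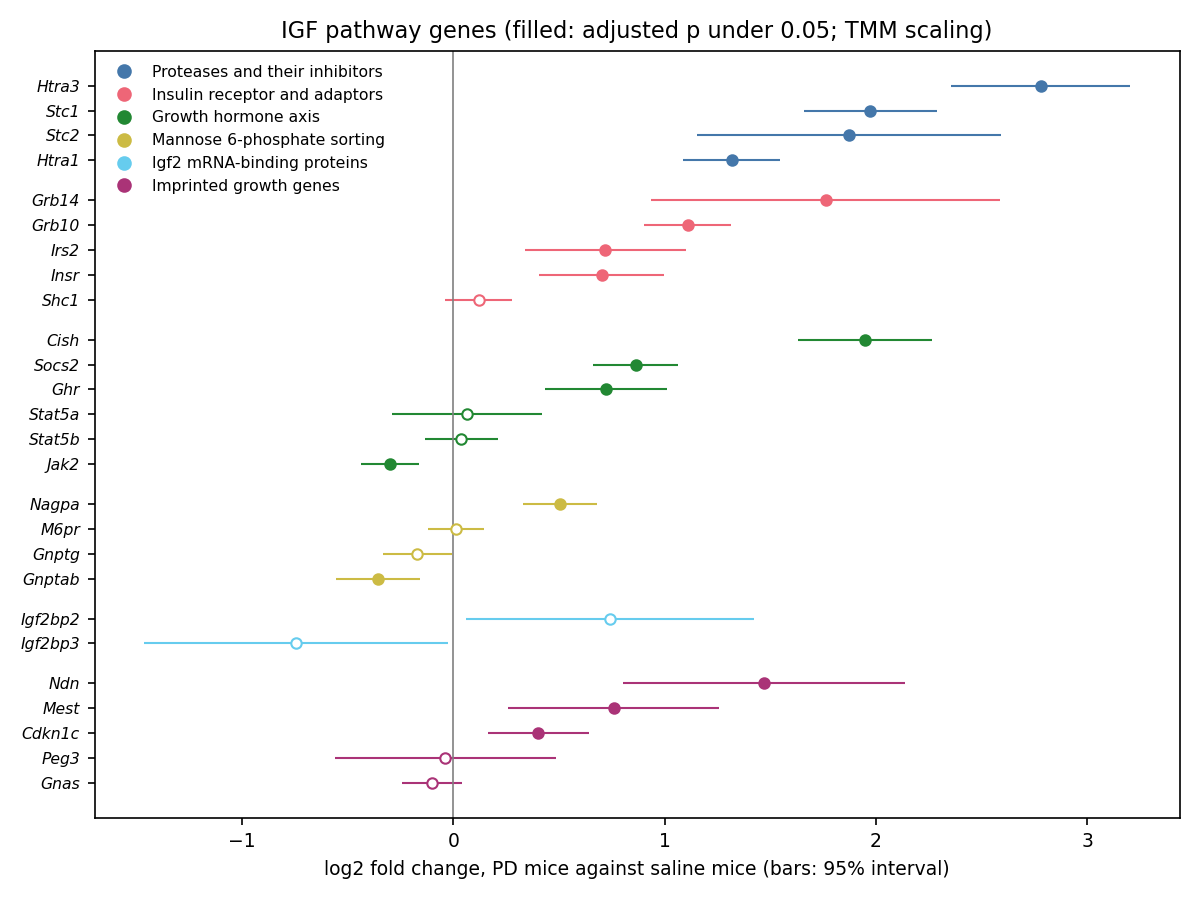
Log2 fold change with 95% interval of the 26 tested IGF pathway genes, PD mice against saline mice under TMM scaling, coloured by list and filled where the adjusted p is under 0.05. The proteases and stanniocalcins lie between 1.32 and 2.78, while the mannose 6-phosphate genes lie between -0.36 and 0.51; Insr, Irs2, Shc1, Ghr, Socs2, Stat5a, Stat5b, M6pr, Nagpa, Igf2bp2, Mest and Cdkn1c turn below 0 once the libraries are scaled to the geometric mean of the endothelial markers.

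Marker genes of cells known to express IGF genes moved in the same comparison, in which 31.1% of all tested genes were higher and 27.8% lower. All 10 fibroblast markers were higher in PD mice, with a median log2 fold change of 2.80, and their summed level ran from 99.99 to 107 CPM in the saline mice and from 877 to 915 CPM in the PD mice. All 9 mesothelial markers were higher too, with a median of 3.57 and sums of 32.7 to 38.6 and 227 to 259 CPM. For macrophages, an abundant source of Igf1 in many tissues, all 9 markers were higher with a median of 2.04 and sums of 2596 to 2739 and 10548 to 11398 CPM. Of 12 endothelial markers, 11 were higher with a median of 0.96 and sums of 1180 to 1194 and 1869 to 1968 CPM. None of the fibroblast, mesothelial, macrophage or endothelial markers was at 0 throughout. The 5 lymphatic endothelial markers had a median of 2.39 and 7 of 9 mural markers were higher, with a median of 1.40, whereas all 7 B cell markers were lower, with a median of -1.04. Of the T cell markers, 3 of 7 were lower, and of 4 tested adipocyte markers none was called. All 10 markers of pancreatic acinar cells were higher, with sums of 1.91 to 5.62 CPM in the saline mice and 9632 to 10471 CPM in the PD mice, while of the 6 islet markers, all too low to be tested, Ins1, Ins2 and Iapp had no reads. Of the other islet markers, Gcg had 0 reads in each saline mouse and 13, 3 and 7 in the PD mice, Ppy had 0, 4 and 0 against 8, 36 and 29, and Sst had 0, 1 and 2 against 2, 4 and 1. The rises of Igfbp5 and Igfbp6 lay within the range of the fibroblast markers (1.94 to 3.91 on the log2 scale). Both also lay within that of the mesothelial markers (2.02 to 3.92). The rise of Igf1 lay below the range of the macrophage markers (1.59 to 2.38), which held Igfbp3 and Igfbp5. The range of the mural markers (-0.25 to 2.49) held every tested IGF gene but Igfbp6. The range of the endothelial markers (0.13 to 1.65) held Igf1, Igf2, Igf1r, Igfbp4 and Igfbp7. Igfbp3, Igfbp5 and Igfbp6 lay above that range and Igf2r below it. The range of the 5 lymphatic endothelial markers (1.70 to 2.64) held Igfbp3 and Igfbp5. The part of these cells in the levels of the IGF genes was not tested.

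**Figure D5:**
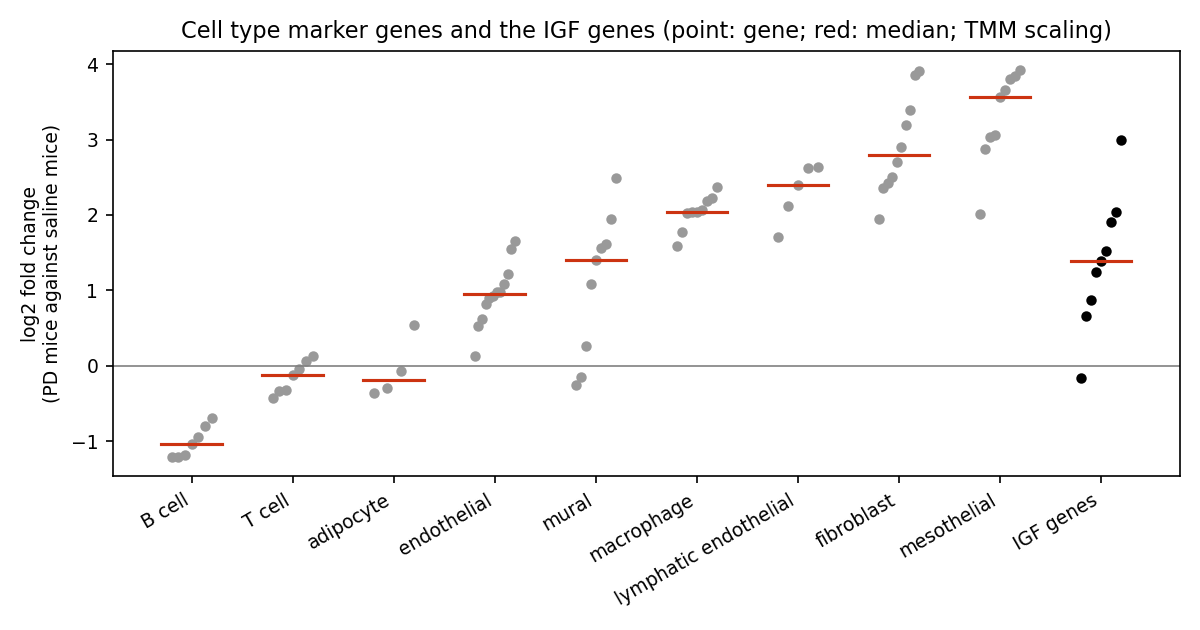
Log2 fold change under TMM scaling, PD mice against saline mice, of the tested marker genes of 9 cell types (grey) and of the 9 tested IGF genes (black), with a red line at each median. The IGF genes have a median of 1.39, next to the mural markers at 1.40. This lies between the endothelial markers at 0.96 and the macrophage markers at 2.04. Igf1r falls below 0 under both endothelial scalings, and Igfbp4 under the one that weights the markers equally, in each case without a call.

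Relative to the endothelial markers, fewer IGF genes were higher. With scaling to their summed counts, which moved the median log2 fold change of all tested genes to -0.67, 6 of the 9 genes were higher and Igf2r was lower. Of all 14005 tested genes, 1710 were higher and 8927 lower by this scaling. Pecam1 alone held 31.6% of those summed counts. With equal weight for each of the 12 markers, an alternative chosen after seeing the data that moved the median of all tested genes to -0.94, 5 genes were higher, namely Igf1, Igfbp3, Igfbp5, Igfbp6 and Igfbp7, and Igf2r was lower at -1.12 (adjusted p = 2.10e-08 in edgeR). Of all tested genes, 1186 were then higher and 10045 lower. Igf2 was then at 0.28, without a call (adjusted p = 0.23 in edgeR). Igfbp6 kept a log2 fold change of 2.04 (adjusted p = 1.95e-10 in edgeR) and Igf1 one of 0.43 (adjusted p = 0.00294 in edgeR).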

How the data were processed

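RNA of sorted cells labelled peritoneal ECs from 3 saline and 3 PD mice was sequenced. The authors deposited 1 table of 22183 genes with raw read counts per mouse, not normalized, and the FPKM that the authors computed per mouse; 0 sample columns were unmatched. Its columns of group means, fold changes, p-values and FDR were not used. The submitters' processing notes name fastp 0.18.0, Bowtie2 2.2.8, HISAT2, StringTie and RSEM without their roles. The genome build and annotation are not given in the sources used here; 22128 identifiers matched GENCODE M21.

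Counts were filtered with filterByExpr, scaled by TMM and tested with edgeR 4.0.16 (R 4.3.3) by its quasi-likelihood test between PD and saline mice without covariates, with Benjamini-Hochberg adjustment over all 14005 tested genes and a threshold of 0.05. The methods name limma, which was run as an alternative. Standard errors and 95% intervals were derived from the F statistic, and CPM use TMM-scaled library sizes. FPKM served only to compare levels between genes and were not tested. The script was tested on simulated data with known changes. Alternatives were DESeq2 1.42.0, limma-voom (limma 3.58.1), library size without TMM, no filter on low counts, 2 scalings to 12 endothelial marker genes, a 2-fold minimum, the replicate number as a block, and each mouse left out. The members and gene lists were chosen with earlier results of these data known. The genes named are the 10 IGF genes, genes that overlap or neighbour them, and up to 4 tested genes per pathway list by smallest p plus the untested ones; other listed genes given with values (Shc1, Stat5a, Stat5b, Peg3 and Gnas among them) complete their lists. A search for genes with a pattern like that of Igf1 or Igf1r is not reported, since the 6 mice fall into separate groups.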

Additional observations from a re-analysis of the deposited data

How the results depend on the processing

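With each mouse left out in turn, the IGF genes called higher stayed at 8 and those called lower at 0; the pathway genes higher ran from 15 to 17 and lower from 2 to 3, and all tested genes from 3852 to 4334 higher and from 3121 to 3682 lower. DESeq2, limma-voom, library size without TMM, no filter and the replicate block left each of these counts within 1.5 times. Scaling to the summed endothelial markers gave 1710 of all genes higher and 8927 lower, 1 IGF gene lower (Igf2r), and 8 pathway genes higher and 11 lower; it turned Igf1r to -0.030. Scaling to their geometric mean, added after seeing the data, gave 1186 higher and 10045 lower, 5 IGF genes higher and 1 lower, and 5 pathway genes higher and 12 lower; it turned Igf1r to -0.29 and Igfbp4 to -0.086. The cause of these shifts was not tested. Requiring a 2-fold change left 2158 genes higher and 252 lower, and 8 pathway genes higher and 0 lower. Same-numbered mice did not deviate together (r = 0.19, 0.07 and -0.27 across genes for numbers 1, 2 and 3), so the numbers were not taken to pair the mice; with the replicate block, 8 IGF genes were higher and 0 lower. Nothing in the labels says how the mice were batched, so a batch that ran along with the groups could not be told apart from the treatment. The p-values set the difference between the groups against the spread among the 3 mice within each, and do not cover such a batch. Depth limited Igfbp2, Pappa and Igfals, which had too few reads to pass the filter on low counts in the main test.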
